A study of Mus musculus with 2 samples.

Results

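The 10 genes described here carry glucose into the cell, break it down and handle the lactate that results: the glucose carriers Slc2a1 and Slc2a3, the hexokinases Hk1 and Hk2, phosphofructokinase Pfkp, aldolase Aldoa, pyruvate kinase Pkm, the lactate dehydrogenase subunits Ldha and Ldhb, and the monocarboxylate carrier Slc16a1. They were named as a set by symbol, 10 of the 31057 genes in the deposited count tables, and were followed across 5 cell types separated by marker genes. The question was which isoform of each step the germ cells used compared with the somatic cells around them.

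The study profiled single cells of whole ovaries from newborn female CD1 mice at postnatal day 2, when the reserve of oocytes enclosed in primordial follicles has been laid down. Of 2 libraries, each came from 6 ovaries of 3 pups of a single pregnant female, so that animals were pooled within a library. No treatment was compared. The comparisons below are therefore between cell types within the same libraries, and n = 2 libraries throughout.

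Glycolysis converts glucose to pyruvate, and lactate dehydrogenase passes between pyruvate and lactate. The enzyme is a tetramer of subunits: the A subunit (Ldha) predominates in tissues that form lactate and the B subunit (Ldhb) in tissues that oxidise it, such as the heart. Mammalian oocytes are known to use glucose poorly and to rely on pyruvate, which the surrounding granulosa cells supply. Hexokinase 1 is the widely expressed hexokinase and hexokinase 2 the form of muscle and fat, and Slc2a3 encodes a glucose carrier of higher affinity than that of Slc2a1.

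Cells were assigned when UMIs (unique molecular identifiers, each standing for a captured transcript) of the gate genes passed a minimum: Ddx4, Dazl and Ooep for germ cells, Foxl2, Fst and Wnt6 for granulosa cells, Col1a2 and Dcn for interstitial cells, Upk3b for mesothelial cells and Cdh5 for endothelial cells. The germ gate held 225 cells in replicate 1 and 651 in replicate 2, the granulosa gate 1514 and 490, the interstitial gate 1383 and 2457, the mesothelial gate 115 and 177, and the endothelial gate 60 and 28. The libraries held 54471790 and 59074480 UMIs in 4094 and 4847 barcodes, of which 21 barcode sequences occurred in both libraries. Germ-gated cells were far deeper, with medians of 77759 and 49767 UMIs against 5008 to 14195 in the somatic gates. All 7 germ markers that the gate did not use (among them Zp3, Figla and Gdf9) were detected in germ-gated cells, and their summed level in the somatic gates was 0.371% to 0.982% of that in germ-gated cells. The mesothelial gate was the least separate: the 6 granulosa markers reached 34.8% and 37.0% of their granulosa level there, and the 5 interstitial markers 15.6% and 22.4% of their interstitial level. Haemoglobin and Alas2 UMIs summed to 1052 and 1287 counts per 1000000 UMIs of all genes (CPM) in the granulosa and interstitial gates of replicate 2, against at most 142 in any gate of replicate 1.

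Levels are given in CPM, the UMIs of a gene per 1000000 UMIs of all genes, summed over the cells of a gate in a library. They are shares of a cell type's UMIs. Germ-gated cells held far more UMIs each, so a lower CPM there need not mean fewer UMIs of the gene per cell. A gene was called between cell types when edgeR's quasi-likelihood test gave a Benjamini-Hochberg adjusted p under 0.05 over all 14927 genes tested and the difference was over 2-fold. Because the method tags transcripts at their 3′ ends, each transcript counts once whatever its length, but capture differs between genes. Isoforms are therefore compared by how their ratio shifts from cell type to cell type.

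Across the set, 2 genes were called higher in germ cells than the mean of the 4 somatic types (Pfkp and Ldhb). Another 5 were called lower (Slc2a3, Hk2, Aldoa, Ldha and Slc16a1) and 3 were not called (Slc2a1, Hk1 and Pkm). The somatic mean of these fits is the mean of the log2 levels of the 4 types, each with the same weight. A type of very low level pulls it down, so folds against it need not match ratios of mean CPM. Of all genes tested, 31.6% were called higher in this comparison and 22.0% lower, so that germ and somatic cells differed widely and a call by itself does not set the 10 genes apart. The share of all genes whose germ values lay above or below every somatic value was not counted. Such a lack of overlap, where given below for single genes, is therefore a description. The median log2 difference of the 10 genes was -0.53 against 0.23 over all genes tested. Summed over the 10 genes, germ-gated cells held 3178 and 3310 CPM and the somatic gates 1247 to 2015, and Ldhb made up most of the UMIs of the germ sum.

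**Figure D1:**
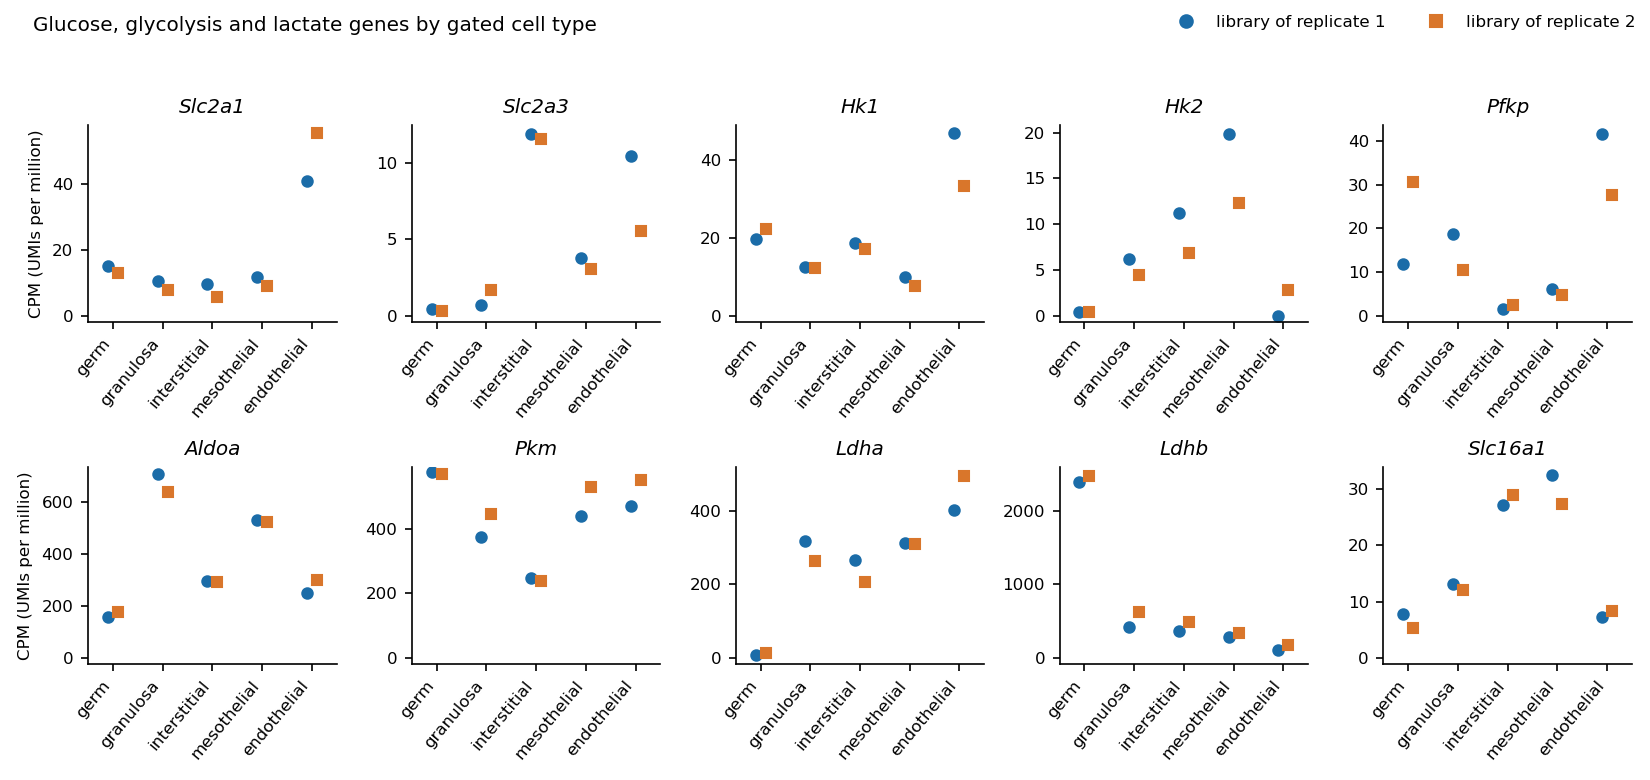
CPM of the 10 genes (y axis, from 0) in the 5 gated cell types (x axis), 1 point per library. Ldhb reached 2385 and 2475 in germ-gated cells and at most 617 in any somatic gate, whereas Ldha was 6.97 and 14.3 in germ-gated cells and 207 to 495 in the somatic gates.

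Lactate dehydrogenase showed the widest separation. Ldhb (chr6:142490249-142507957, minus strand, GRCm38) stood at 2385 CPM in germ-gated cells of replicate 1 and 2475 in replicate 2. It stood at 414 and 617 in granulosa, 358 and 485 in interstitial, 284 and 343 in mesothelial and 100.1 and 169 in endothelial cells. Both germ values lay above all 8 somatic values, and the somatic types fell in the order granulosa, interstitial, mesothelial, endothelial. The level in germ cells was 8.45-fold that of the somatic mean, taken on the log2 scale (log2 fold change 3.08 ± 0.17 SE, adjusted p = 1.71e-07 by edgeR). Ldhb was called higher against each somatic type, from 5.11-fold over granulosa to 20.0-fold over endothelial cells. In the order of levels, germ differed from granulosa and mesothelial from endothelial cells, while granulosa, interstitial and mesothelial cells did not pass the test between neighbours. Germ markers stood in the somatic gates at shares of their germ level that, applied to Ldhb, amount to 8.85 to 24.3 CPM, a small share of the Ldhb measured there.

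Ldha (chr7:46841475-46855627, plus strand) gave the opposite picture. It stood at 6.97 and 14.3 CPM in germ-gated cells, from 114 and 389 UMIs. In the somatic gates it stood at 319 and 264 (granulosa), 266 and 207 (interstitial), 312 and 311 (mesothelial) and 401 and 495 (endothelial). The highest germ value was far under the lowest somatic value. How many of all genes show such a gap was not counted. Ldha was 27.1-fold lower in germ cells than the somatic mean (log2 fold change -4.76 ± 0.31 SE, adjusted p = 4.92e-07), and lower against each somatic type by 20.1-fold to 38.5-fold, while no pair of neighbouring somatic types was called. Granulosa markers stood in germ-gated cells at 0.614% and 4.57% of their granulosa level, and the same shares of granulosa Ldha would be 1.96 and 12.1 CPM. With the same shares taken of all 4 somatic types the sums would be 4.47 and 18.0 CPM, below the germ level measured in replicate 1 and above it in replicate 2. Granulosa markers also stood in mesothelial cells, at 34.8% and 37.0% of their granulosa level. These sums can therefore count the same RNA more than once. The part of such carried-over or co-captured RNA in the value was not tested.

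As a ratio, Ldhb made up 99.7% of Ldhb and Ldha UMIs in germ-gated cells of replicate 1 (exact 95% interval 99.65 to 99.76, for counting error only) and 99.4% in replicate 2. It made up 56.5% and 70.0% in granulosa, 57.3% and 70.0% in interstitial, 47.6% and 52.4% in mesothelial and 20.0% and 25.4% in endothelial cells. Endothelial cells were the only gate with a Ldhb share under 50% in both libraries, and the share of Ldhb was higher in replicate 2 than in replicate 1 in each of the 4 somatic gates. The log2 ratio of Ldhb to Ldha was higher in germ cells than the somatic mean by 7.96 ± 1.11 (SD, n = 2), and higher in 8 of 8 comparisons of germ cells with a somatic gate of the same library. With 2 libraries a paired permutation test cannot go below 0.5, so no p-value is given for ratios.

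The separation was also seen cell by cell. With every cell thinned to 2000 UMIs, which kept 221 of 225 and 580 of 651 germ-gated cells, a Ldhb UMI was found in 96.4% and 97.1% of germ-gated cells and in 35.0% to 63.6% of the cells of the somatic gates. A Ldha UMI was found in 1.36% and 3.62% of germ-gated cells and in 31.7% to 53.6% of somatic cells. For comparison with genes which germ cells should lack, Amhr2, a receptor of granulosa cells, was found in 0.905% and 5.34% of the same thinned germ-gated cells, and Col3a1, a fibroblast collagen, in 0.905% and 4.14%. The endothelial marker Pecam1 was found in 0% and 0.345% and the mesothelial marker Lrrn4 in 0% and 0.172%. In thinned cells of their own gates, Pecam1 was found in 53.3% and 57.1% and Lrrn4 in 7.83% and 2.82%. Lrrn4 could therefore register little background, and Pecam1 marks a gate of only 60 and 28 cells. Thinned mesothelial cells also held Amhr2, in 53.0% and 55.4%, and Col3a1, in 68.7% and 67.8%. Neither is thus particular to granulosa or interstitial cells. In replicate 2 the germ share of Ldha was below Amhr2 and Col3a1 and above Pecam1 and Lrrn4. In replicate 1, from 3 cells, it was above all of these. Its exact 95% interval there, 0.281% to 3.92%, includes Amhr2 and Col3a1. The part of background in these shares was not tested. Without thinning, 28.9% and 24.3% of the much deeper germ-gated cells had a Ldha UMI.

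**Figure D2:**
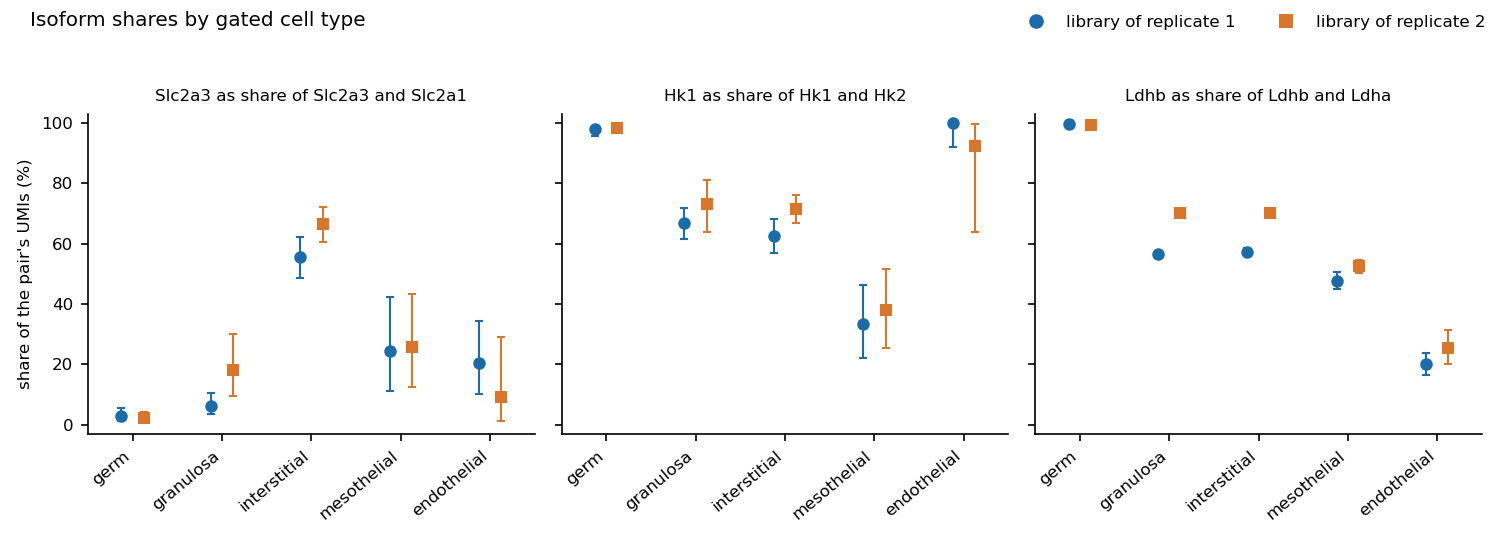
Share of the UMIs of a gene pair that belong to the gene named first (y axis, %) in the 5 gated cell types, for Slc2a3 with Slc2a1, Hk1 with Hk2 and Ldhb with Ldha. Points are libraries and bars are exact 95% binomial intervals of counting error; in germ-gated cells the shares were 2.77% and 2.20%, 97.9% and 98.4%, and 99.7% and 99.4%.

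The promoters of this pair are shown because Ldha and Ldhb part most clearly between germ and somatic cells. The sequences are those of RefSeq (GRCm38.p6), from 250 bases before to 50 after a listed start, written 5′ to 3′ on the gene's strand. The capitals mark ACGTG or GCGTG on either strand, the core letters of the element bound by hypoxia-inducible factors, with overlapping matches joined. The first window is Ldha at chr7:46845554-46845853 (plus strand) and the second Ldhb at chr6:142507908-142508207 (minus strand).
Ldha: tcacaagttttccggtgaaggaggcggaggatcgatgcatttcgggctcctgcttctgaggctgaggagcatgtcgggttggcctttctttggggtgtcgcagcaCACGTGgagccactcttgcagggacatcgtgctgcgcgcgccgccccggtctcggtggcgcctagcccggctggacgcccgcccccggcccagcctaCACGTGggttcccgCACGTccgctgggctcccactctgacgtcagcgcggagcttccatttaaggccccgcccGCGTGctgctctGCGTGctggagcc
Ldhb: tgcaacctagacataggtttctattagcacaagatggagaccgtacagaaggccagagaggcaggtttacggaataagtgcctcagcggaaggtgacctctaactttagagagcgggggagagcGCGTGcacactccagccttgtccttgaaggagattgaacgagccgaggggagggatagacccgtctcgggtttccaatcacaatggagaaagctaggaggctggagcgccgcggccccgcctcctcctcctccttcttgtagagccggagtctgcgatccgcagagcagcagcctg
The Ldha window shown held 7 matches and the Ldhb window 1. A second Ldha window, at chr7:46846832-46847131, held 2 and is not shown. A match on both strands of the same palindrome counts for each strand. At least 1 match occurred in 43.8% of the 32851 promoter windows of the table and 7 or more in 0.301%. Of the 10 genes, 9 were in the table with 14 windows, of which 11 had at least 1 match, among them 2 in the Hk2 window, 2 in that of Slc2a1 and 5 in that of Slc16a1. Hk1, Aldoa and Pkm each had a window with 0 matches beside others with at least 1. Aldoa windows that overlap hold the same match, which is counted in each. The windows of the 10 genes were not compared with others of like CG content. A match describes letters in a window and not a bound site. Slc2a3 was not matched.

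Of the glucose carriers, Slc2a1 (chr4:119108711-119137983, plus strand), which encodes the carrier of endothelial barriers, was highest in endothelial cells at 40.7 and 55.3 CPM. Germ-gated cells held 15.0 and 13.1, granulosa cells 10.6 and 7.68, interstitial cells 9.53 and 5.82 and mesothelial cells 11.8 and 8.91. The germ values lay within the range of the somatic ones, below both endothelial values and above the other 6. Against the somatic mean the log2 fold change was 0.14 ± 0.21 SE (adjusted p = 0.569). Against endothelial cells Slc2a1 was lower in germ cells by 3.09-fold (adjusted p = 0.00147), and against interstitial cells it was higher by 2.01-fold (adjusted p = 0.00564), a difference at the 2-fold limit that 8 of 12 other settings did not call. Endothelial and germ cells were called different as neighbours in the order of levels, and the other neighbours were not.

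Slc2a3 (chr6:122727809-122801640, minus strand) was found in germ cells at 0.428 and 0.294 CPM, from 7 and 8 UMIs. It stood at 0.709 and 1.69 in granulosa, 11.9 and 11.6 in interstitial, 3.78 and 3.08 in mesothelial and 10.4 and 5.53 in endothelial cells, the last from 10 and 2 UMIs. Both germ values lay below all 8 somatic values. Slc2a3 was lower in germ cells than the somatic mean by 11.5-fold (log2 fold change -3.52 ± 0.43 SE, adjusted p = 3.97e-05). The difference was 29.8-fold against interstitial cells (adjusted p = 6.35e-06) and 2.72-fold against granulosa cells (adjusted p = 0.0304), where replicate 1 alone gave a log2 difference of -0.45 and doubled gate thresholds an adjusted p of 0.203.

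Within the carrier pair, Slc2a3 gave 2.77% and 2.20% of the UMIs in germ cells, 6.28% and 18.0% in granulosa, 24.2% and 25.7% in mesothelial and 20.4% and 9.09% in endothelial cells. Interstitial cells were the only gate in which Slc2a3 gave over 50% of the UMIs, at 55.5% and 66.5%. The log2 ratio of Slc2a3 to Slc2a1 was lower in germ cells than the somatic mean by 3.63 ± 0.49 (SD, n = 2; the difference was negative in 8 of 8 comparisons). With cells thinned to 2000 UMIs, when only 1 germ-gated cell in each library still had a Slc2a3 UMI, the mean difference shrank to -1.22 and germ cells were higher in 2 of 8 comparisons, so that the size of this shift is weakly determined.

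Hk1 (chr10:62268855-62379908, minus strand) stood at 19.6 and 22.1 CPM in germ-gated cells. It stood at 12.4 and 12.1 in granulosa, 18.8 and 17.2 in interstitial, 9.92 and 7.54 in mesothelial and 46.9 and 33.2 in endothelial cells. Germ cells again lay between endothelial cells and the rest. The log2 fold change against the somatic mean was 0.40 ± 0.15 SE, which had an adjusted p of 0.0343 but was under 2-fold. Of the single somatic types Hk1 was called different from mesothelial cells alone (2.49-fold higher in germ cells, adjusted p = 0.000725), a difference that fell short in 2 of 12 other settings. Against endothelial cells the log2 fold change was -0.93 ± 0.23 SE (adjusted p = 0.0073), just under 2-fold. That difference passed the limit in 5 of 12 other settings. No pair of neighbours in the order endothelial, germ, interstitial, granulosa, mesothelial was called.

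Hk2 (chr6:82725025-82774454, minus strand) was near 0 in germ cells, with 0.428 and 0.368 CPM from 7 and 10 UMIs. Mesothelial cells held 19.8 and 12.3, interstitial cells 11.2 and 6.84 and granulosa cells 6.17 and 4.46. Endothelial cells had 0 UMIs in replicate 1, where 3 UMIs would be 3.13 CPM, and 1 UMI in replicate 2. The germ values thus lay below the other 3 somatic types and could not be told from endothelial cells at that depth. The marker shares of all 4 somatic types, applied to their Hk2, would amount to 0.129 and 0.376 CPM in germ cells, below the level measured in replicate 1 and about equal to it in replicate 2, and the part of such RNA in the fold changes was not tested. Hk2 was lower in germ cells by 12.3-fold than in granulosa (adjusted p = 8.71e-05), by 20.3-fold than in interstitial (adjusted p = 2.06e-05) and by 38.3-fold than in mesothelial cells (adjusted p = 1.22e-05). Against the mean of all 4 types, which includes the near-empty endothelial gate, the log2 fold change was -3.53 ± 0.90 SE (adjusted p = 0.00508).

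Hk1 therefore held 97.9% and 98.4% of hexokinase 1 and 2 UMIs in germ cells, 66.9% and 73.1% in granulosa, 62.6% and 71.5% in interstitial, and 33.3% and 37.9% in mesothelial cells. In endothelial cells the share was 100% of 45 UMIs in replicate 1 (exact 95% interval from 92.1) and 92.3% of 13 UMIs in replicate 2, so that their share overlapped that of germ cells. The log2 ratio of Hk1 to Hk2 was higher in germ cells than the somatic mean by 4.08 ± 0.68 (SD, n = 2), and higher in 7 of 8 comparisons, the exception being endothelial cells of replicate 1. After thinning, Hk2 was found in 0 of 221 and 0 of 580 germ-gated cells, which allows shares of up to 1.36% and 0.517%, and in 0.793% to 2.61% of granulosa, interstitial and mesothelial cells. At 2000 UMIs a cell, Hk2 was thus detectable in few cells of any type.

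**Figure D3:**
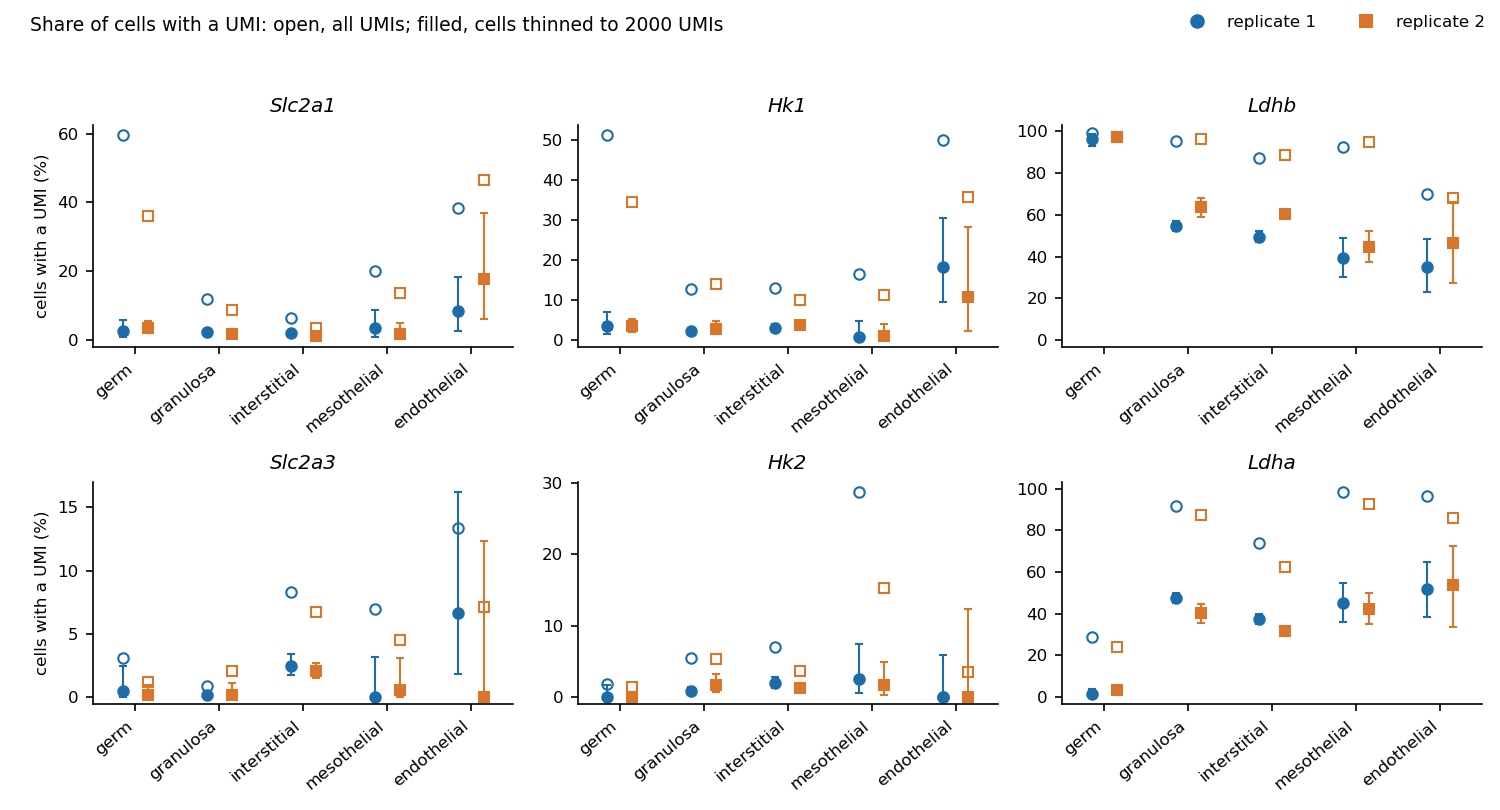
Share of cells with at least 1 UMI (y axis, %, with its own scale in each panel) of Slc2a1, Slc2a3, Hk1, Hk2, Ldhb and Ldha in the 5 gated cell types. Open symbols use all UMIs and filled symbols cells thinned to 2000 UMIs with exact 95% binomial intervals; the filled Ldhb symbols of germ-gated cells stand at 96.4% and 97.1%, and those of Ldha at 1.36% and 3.62%.

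Shares of cells with a UMI depended on depth. Slc2a1 was found in 59.6% and 35.9% of germ-gated cells with all UMIs and in 2.71% and 3.62% after thinning. In granulosa cells it was found in 11.8% and 8.78%, and in 2.38% and 1.65% after thinning. Oocyte-specific Zp3, which somatic cells should lack, was found in 0% to 1.24% of thinned somatic cells. In germ-gated cells split by total UMIs, Zp3 stood at 395 to 1384 CPM, far above Slc2a1. Its share therefore sets no limit for genes of low level. The part of background in low thinned shares was not tested.

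Pfkp, Aldoa and Pkm act at the committing step, the splitting step and the last step of glycolysis. Pfkp (chr13:6579768-6648777, minus strand), the platelet form of phosphofructokinase, differed between the libraries within germ cells, at 12.0 and 30.6 CPM. It stood at 18.7 and 10.6 in granulosa, 1.47 and 2.49 in interstitial, 6.14 and 4.80 in mesothelial and 41.7 and 27.6 in endothelial cells. The germ values overlapped those of granulosa and endothelial cells and lay above the 4 values of interstitial and mesothelial cells. The call against the somatic mean (log2 fold change 1.38 ± 0.34 SE, adjusted p = 0.00436) rested on replicate 2: replicate 1 alone gave 0.41 and replicate 2 alone 2.07. The differences from interstitial cells (11.4-fold higher, adjusted p = 0.000141) and mesothelial cells (4.09-fold higher, adjusted p = 0.00961) were larger, and in replicate 1 alone that from mesothelial cells fell just under 2-fold, at a log2 difference of 0.96.

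Aldoa (chr7:126795234-126800751, minus strand), the aldolase of muscle and of most tissues, was lowest in germ cells at 156 and 178 CPM. Granulosa cells held 709 and 641, mesothelial cells 531 and 524, interstitial cells 295 and 294 and endothelial cells 251 and 301. The germ values lay below all 8 somatic values, with little spread between libraries in any type. Aldoa was 2.31-fold lower in germ cells than the somatic mean (log2 fold change -1.21 ± 0.11 SE, adjusted p = 4.68e-06), and was called lower against granulosa (3.72-fold) and mesothelial cells (3.08-fold) but not against interstitial or endothelial cells, where the differences of 1.62-fold and 1.54-fold were under the fold limit with adjusted p of 0.000613 and 0.00278. The granulosa marker shares, applied to granulosa Aldoa, would amount to 4.35 and 29.3 CPM in germ cells, under the values measured.

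Pkm (chr9:59656368-59679375, plus strand) was abundant everywhere. It stood at 575 and 571 CPM in germ cells, 376 and 445 in granulosa, 248 and 239 in interstitial, 440.0 and 529 in mesothelial and 470.2 and 550.0 in endothelial cells. Both germ values exceeded all 8 somatic values, the nearest by little. The log2 fold change against the somatic mean was 0.62 ± 0.11 SE (adjusted p = 0.00045), under 2-fold, and only the difference from interstitial cells was called (2.56-fold higher in germ cells, adjusted p = 1.68e-05). The M1 and M2 forms of pyruvate kinase come from the same gene and share its 3′ end, so these UMIs do not tell them apart. Aldoa, Pkm, Ldha and Gapdh have near-identical processed copies in the genome, to which some reads may have been lost or shared.

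Slc16a1 (chr3:104638668-104658462, plus strand), the carrier MCT1 that moves lactate and pyruvate across the membrane with a proton, was highest in mesothelial cells at 32.6 and 27.4 CPM and in interstitial cells at 27.2 and 29.0. Granulosa cells held 13.2 and 12.1, endothelial cells 7.30 and 8.29 and germ cells 7.82 and 5.23. Germ and endothelial values overlapped, and both lay below the other 3 types. Slc16a1 was 2.46-fold lower in germ cells than the somatic mean (log2 fold change -1.30 ± 0.20 SE, adjusted p = 0.000173), by 4.01-fold against interstitial and 4.52-fold against mesothelial cells. The difference from granulosa cells was 1.82-fold (adjusted p = 0.00332) and that from endothelial cells had a log2 value of -0.16 ± 0.40 SE (adjusted p = 0.759). The endothelial values came from 7 and 3 UMIs.

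Counted by partner, germ cells differed from granulosa cells, their neighbours in the follicle, in 5 of the 10 genes: Ldhb was called higher and Slc2a3, Hk2, Aldoa and Ldha lower (over all genes 29.7% were called higher and 29.3% lower). Against interstitial cells 4 were called higher and 4 lower (32.8% and 26.3% of all genes), against mesothelial cells 3 higher and 5 lower (29.7% and 24.7%), and against endothelial cells 1 higher and 3 lower (28.1% and 19.1%). Ldha was lower and Ldhb higher in all 4 of these comparisons, and Slc2a3 was lower in all 4. The 4 comparisons share the same germ libraries.

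The somatic types also differed among themselves, in 28 of 60 comparisons of the 10 genes. Endothelial cells took part in most: 7 of 10 genes were called between interstitial and endothelial cells (18.7% of all genes), 7 between mesothelial and endothelial cells (17.3%) and 5 between granulosa and endothelial cells (20.6%). They had more Slc2a1 and Hk1 than each other somatic type and less Ldhb than each of them. Slc2a1, for example, was 5.06-fold higher in endothelial than in granulosa cells (adjusted p = 0.000668). Between granulosa and interstitial cells 4 genes were called (27.2% of all genes), between granulosa and mesothelial cells 3 (15.1%) and between interstitial and mesothelial cells 2 (21.8%). The Hk2 calls against endothelial cells rest on the single Hk2 UMI of that gate.

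**Figure D4:**
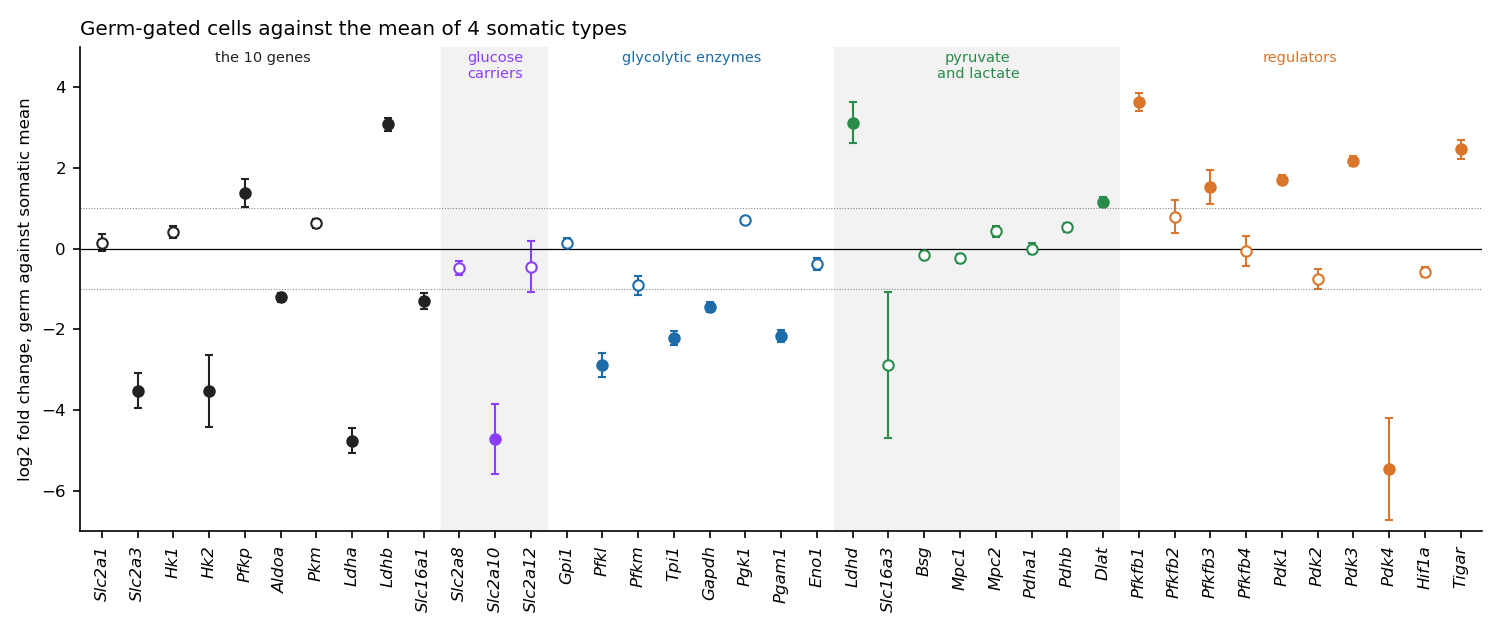
Log2 fold change of germ-gated cells against the mean of the 4 somatic types (y axis) with its standard error, for the 10 genes and 29 other genes of the pathway grouped by role; filled symbols were called, open symbols were not, and dotted lines mark 2-fold. Ldhb stands at 3.08 and Ldha at -4.76; Slc2a10 and Pdk4 rest on 2 and 1 germ UMIs, and genes with 0 UMIs in a whole cell type are not drawn.

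The rest of the pathway was read from lists of 42 further genes, of which 35 passed the filter on low counts. Of these, 9 (25.7%) were called higher in germ cells than the somatic mean and 6 (17.1%) lower, under the 31.6% and 22.0% of all genes. Among 11 glycolytic enzymes tested (17 listed), 1 was called higher and 4 lower, with a median log2 difference of -0.91 against 0.23 over all genes. By single type, 7 (Pfkl, Pfkm, Tpi1, Gapdh, Pgam1, Eno2 and Eno3) were called lower than in granulosa cells and 4 were not called, where 29.3% of all genes were called lower. The median was -1.51 against 0.05 over all genes. Against mesothelial cells 6 were called lower and 5 were not called (24.7% of all genes lower), with medians of -2.02 and 0.19. Against interstitial cells 1 was called higher and 6 lower (32.8% and 26.3% of all genes), with medians of -1.18 and 0.25. Against endothelial cells 1 was called higher and 4 lower (28.1% and 19.1% of all genes), with medians of -0.50 and 0.52. Pfkl, the liver form of phosphofructokinase, stood at 3.91 and 8.98 CPM in germ cells and 39.6 to 65.5 in the somatic gates (log2 fold change -2.88 ± 0.30 SE, adjusted p = 1.16e-05). In UMIs, Pfkp thus outnumbered Pfkl in germ cells of both libraries, whereas Pfkl outnumbered Pfkp in each of the 8 somatic sums. Pfkp was called higher and Pfkl lower in these same sums, so that this shift of their ratio is no separate result. Pfkm, another phosphofructokinase gene, had a mean of 8.05 CPM in germ cells. It was called lower than in granulosa (2.54-fold, adjusted p = 0.001) and interstitial cells (2.27-fold, adjusted p = 0.00205), but not against the other types or the mean. Triosephosphate isomerase Tpi1 stood at 41.9 and 47.5 in germ cells and 81.3 to 413 in the somatic gates (log2 fold change -2.22 ± 0.17 SE, adjusted p = 1.63e-06). Phosphoglycerate mutase Pgam1 stood at 40.1 and 48.5 against 156 to 312 (log2 fold change -2.17 ± 0.16 SE, adjusted p = 9.56e-07), and Gapdh at 245 and 300.0 against 486 to 1171 (log2 fold change -1.45 ± 0.12 SE, adjusted p = 2.45e-06). Pfkl, Tpi1, Pgam1 and Gapdh were described because they were called lower than the mean in these same sums, so that their lack of overlap is no separate result. How many of all genes show such a lack of overlap was not counted.

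For other enzymes the picture differed. Phosphoglycerate kinase Pgk1 stood at 195 and 208 CPM in germ cells and 120.2 to 160.3 in the somatic gates, a log2 difference of 0.70 ± 0.09 SE that had an adjusted p of 6.51e-05 but was under 2-fold. Glucose phosphate isomerase Gpi1 had a log2 fold change of 0.15 ± 0.11 SE (adjusted p = 0.229) and enolase Eno1 of -0.38 ± 0.16 SE (adjusted p = 0.0519). Aldoc, the aldolase best known from brain, was the enzyme called higher: germ cells held 11.5 and 9.71, granulosa 7.31 and 6.30, mesothelial 9.45 and 8.57 and interstitial cells 0.196 and 0.448, with 0 UMIs in endothelial cells. Its call against the somatic mean thus came from the interstitial and endothelial gates.

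Among 10 genes of pyruvate and lactate handling, 3 were called higher in germ cells than the somatic mean and 7 were not called. Of all genes, 31.6% were called higher in this comparison and 22.0% lower. Ldhc, the lactate dehydrogenase subunit known from male germ cells, was found at 8.19 and 3.97 CPM in germ-gated cells, from 134 and 108 UMIs, and in the somatic gates only as 2 UMIs in granulosa and 1 in interstitial cells of replicate 1. With mesothelial and endothelial cells at 0, no fold is given. Ldhd, which acts on D-lactate, stood at 5.01 and 3.57 in germ cells and at most 2.76 elsewhere, that value being a single UMI (log2 fold change 3.12 ± 0.51 SE, adjusted p = 0.000305). Ldhd was called higher than in interstitial cells (90.4-fold, adjusted p = 7.93e-05), which held 1 UMI in both libraries together. It was also called against granulosa cells (3.48-fold, adjusted p = 0.0124), but not against mesothelial (adjusted p = 0.0548) or endothelial cells (adjusted p = 0.114). Dlat, a subunit of the pyruvate dehydrogenase complex, stood at 59.8 and 57.8 against 16.6 to 43.7 (log2 fold change 1.16 ± 0.12 SE, adjusted p = 1.27e-05), and with all somatic cells summed per library fell under 2-fold, at 0.80. Dlat was called higher than in interstitial, mesothelial and endothelial cells, but not granulosa cells (1.66-fold, adjusted p = 0.00146). The partner subunits Pdha1 (log2 fold change -0.002 ± 0.13 SE, adjusted p = 0.9999) and Pdhb (0.53 ± 0.10 SE, adjusted p = 0.00113) were not called against the mean. For Pdha1 that mean covers differences of both signs. Pdha1 was called lower than in interstitial cells (2.03-fold, adjusted p = 0.000222). Against granulosa cells it was 1.87-fold higher (adjusted p = 0.000662), under the fold limit. Slc16a3, the lactate exporter MCT4, stood at 0.550 and 2.61 CPM in germ cells and 19.2 to 63.9 in granulosa, interstitial and mesothelial cells, but at 0 UMIs and 1 UMI in endothelial cells. It was called lower in germ cells than in granulosa (21.6-fold, adjusted p = 0.00021), interstitial (15.1-fold, adjusted p = 0.000406) and mesothelial cells (21.9-fold, adjusted p = 0.00033), and was not called against the mean, which includes the near-empty endothelial gate (adjusted p = 0.180).

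Of the 10 regulators, 5 were called higher in germ cells than the somatic mean and 1 lower, where 31.6% and 22.0% of all genes were, and the median log2 difference was 1.16 against 0.23 over all genes. Among the kinases that shut pyruvate dehydrogenase, Pdk3 stood at 177 and 170 CPM in germ cells and 25.0 to 64.4 in the somatic gates (log2 fold change 2.17 ± 0.11 SE, adjusted p = 1.27e-07), and Pdk1 at 53.0 and 48.9 against 12.8 to 24.9 (1.70 ± 0.11 SE, adjusted p = 5.79e-07). Pdk4 was called lower on 1 germ UMI, and Pdk2 had a log2 fold change of -0.75 ± 0.25 SE (adjusted p = 0.0195), under the fold limit. Of the enzymes that make and remove the activator of phosphofructokinase, Pfkfb1 stood at 19.0 and 16.7 against 0.685 to 3.13 (3.63 ± 0.23 SE, adjusted p = 4.36e-07). Pfkfb3 stood at 16.9 and 8.76 against 2.36 to 13.6 (1.53 ± 0.43 SE, adjusted p = 0.00835), and was not called after thinning (adjusted p = 0.184) or with all somatic cells summed per library (adjusted p = 0.177). Pfkfb3 was called higher than in interstitial cells (4.08-fold, adjusted p = 0.00588) but not than in granulosa cells (log2 fold change 0.62, adjusted p = 0.275). Tigar, a phosphatase acting on the same activator, stood at 28.7 and 19.5 against 2.37 to 13.8 (2.46 ± 0.23 SE, adjusted p = 6.61e-06). Hif1a, whose protein drives many glycolytic genes in low oxygen, had a log2 fold change of -0.59 ± 0.12 SE (adjusted p = 0.00158), under the fold limit.

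Of 4 other glucose carriers tested (5 listed), 1 was called lower in germ cells than the somatic mean and 3 were not called. Of all genes, 31.6% were called higher and 22.0% lower. Slc2a10 was found as 2 UMIs and 0 UMIs in germ cells and at 4.80 to 5.01 CPM in interstitial cells. Slc2a4, the insulin-responsive carrier, stood at 8.84 and 6.91 in interstitial cells, at most 2.84 in mesothelial and 0.873 in granulosa cells, and at 1 and 4 UMIs in germ cells. It was called lower in germ cells than in granulosa (5.82-fold, adjusted p = 0.0036), interstitial (57.6-fold, adjusted p = 7.47e-06) and mesothelial cells (20.3-fold, adjusted p = 0.000295). With endothelial cells at 0 UMIs, no fold of Slc2a4 against the mean is given. The ubiquitous endosomal carrier Slc2a8 had a log2 fold change of -0.48 ± 0.17 SE (adjusted p = 0.0257).

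Germ-gated cells spanned a wide range of total UMIs, and the pattern was followed over classes of UMIs per cell set after the data were seen: under 20000 (18 and 226 cells), 20000 to 60000 (40 and 179 cells) and 60000 or more (167 and 246 cells). Smallest, middle and largest class refer here to UMIs per cell, and cell size was not measured. Ldhb stood at 1922 and 1959 CPM in the smallest class, 1900 and 2245 in the middle class and 2447 and 2609 in the largest. It was thus above the somatic gates in each class of each library. Ldha stood at 38.6 and 20.0, 3.98 and 11.2, and 7.10 and 15.4, the first of these from 4 UMIs. Granulosa markers stood at 106 and 101, 11.9 and 57.1, and 10.3 and 80.6 CPM. In replicate 2 they and Ldha were both lowest in the middle class, whereas in replicate 1 Ldha was higher in the largest class than in the middle one and the markers were not. Their part in the Ldha values was not tested. Hk2 had 0 UMIs in the smallest class of both libraries, which allows up to 29.0 and 2.99 CPM, and 0 in the middle class of replicate 1, which allows 1.70. It stood at 0.333 to 0.489 CPM in the other classes. Pfkp differed between libraries in the larger classes, at 12.5 and 35.9 and at 11.8 and 28.5.

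**Figure D5:**
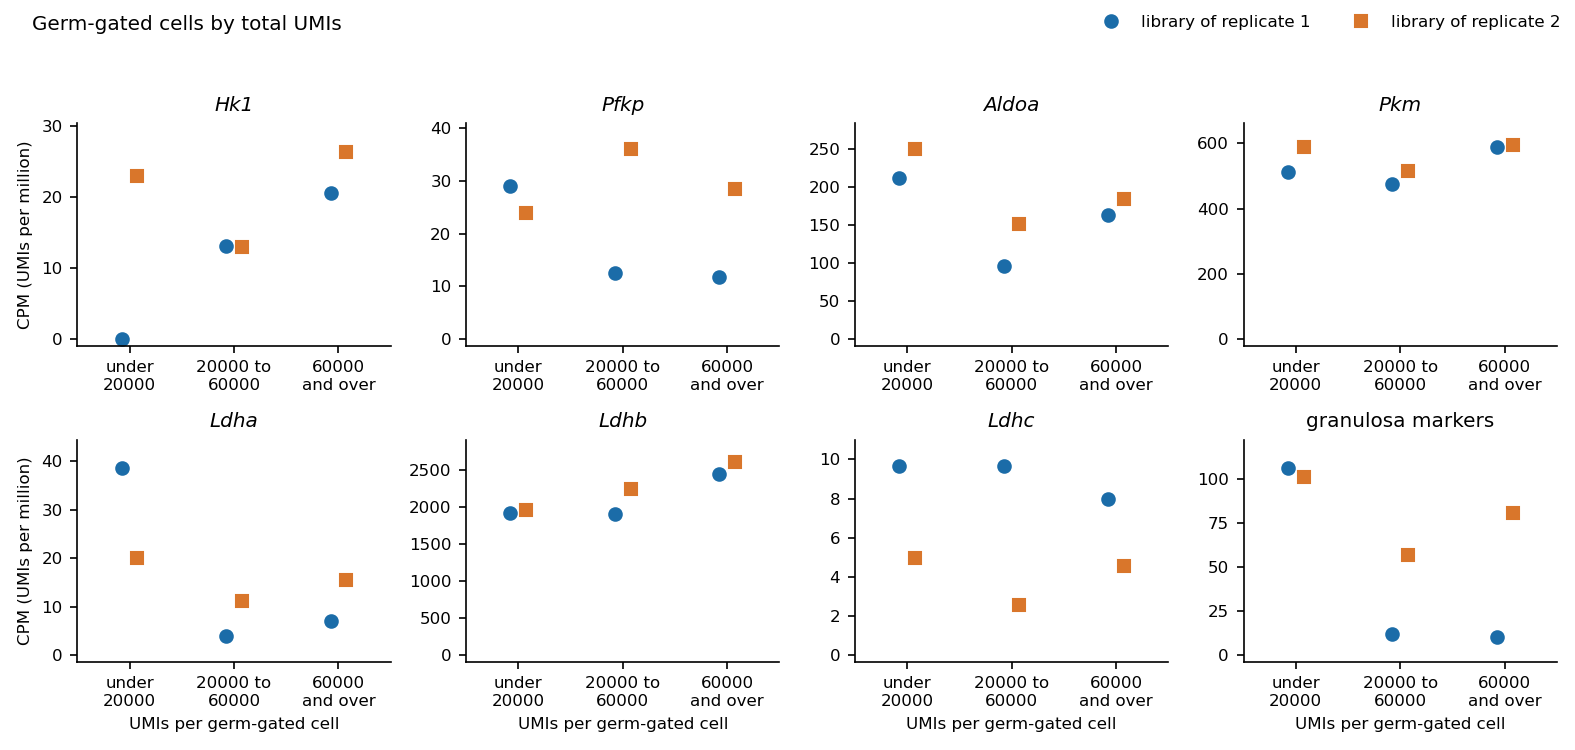
CPM (y axis, from 0) of 7 genes and of the summed 6 granulosa markers in germ-gated cells split by UMIs per cell (x axis), 1 point per library. Ldhb lies between 1900 and 2609 in every class, whereas Ldha and the granulosa markers are both highest in the class under 20000 UMIs, where the Ldha point of replicate 1 rests on 4 UMIs.

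As a description of likeness, Pearson's r of log2 levels was taken over the 10 sums (5 types in 2 libraries, which share libraries and depth) with each gene tested. Ldhb was most like Hsd17b10 (r = 0.990), Ift88 (0.989) and Spire1 (0.986), and Ldha most like Plscr3 (0.994), Zfp280c (0.994) and Stat5b (0.992). For Ldhb 168 genes and for Ldha 263 genes reached 0.95. Slc2a3 was most like Ecm1 (0.990), Ppm1m (0.984) and Gulp1 (0.980), and Slc2a1 most like Tnfrsf11a (0.975), Gmfb (0.973) and Nras (0.966). Hk1 was most like Mindy3 (0.971), Dock6 (0.969) and Atp1b3 (0.964), and Hk2 most like Dok1 (0.982), Cyp2s1 (0.966) and Hoxc5 (0.960).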

How the data were processed

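Single-cell 3′ libraries of P2 ovaries were provided as UMI counts per gene and barcode, which per the labels the authors made with Cell Ranger 3.0.2 on GRCm38, and the deposited counts were used without normalization. The labels name version 2 of the reagent kit and the study's methods version 3. Barcodes under 500 genes or over 10% mitochondrial UMIs were dropped, and cells over a Scrublet score of 0.224 (expected share 0.05; the automatic threshold of replicate 1, applied to both libraries since that of replicate 2 marked 2 cells) were removed as doublets (102 and 93 cells). Of 3636 and 4371 cells used, which shared 16 barcode sequences between the libraries, 71 and 161 that passed several gates and 268 and 407 that passed none were left out. A gate needed at least 3 UMIs and 5 per 10000 UMIs of its genes summed (germ), 4 and 6 (granulosa), 5 and 10 (interstitial), 2 and 2 (mesothelial, endothelial), set from the gate genes alone.

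UMIs were summed per library and gate. A quasi-likelihood model of these 10 sums (edgeR 4.0.16, R 4.3.3) had cell type as its only term and 5 residual degrees of freedom, with TMM scaling and genes of low counts removed by filterByExpr. The code was first tested on simulated data with the same levels in all somatic types, a simpler setting than these data. The libraries were separate pools of pups of the same strain, so p-values measure the spread between 2 pools. Since each library holds every type of the same animals, the library was also fitted as a block: over genes, library deviations of pairs of types correlated at 0.046 to 0.276. Other settings were library sizes without TMM, DESeq2 1.42.0, no filter on low counts, each library alone, thinned cells, and other gates and cell filters. Ratios used a pseudocount of 0.5. Carry-over values multiply a type's level by the share of its markers found in another type. Some markers occur in several gates, so that sums of these values over types, as for Ldha and Hk2, can count the same RNA more than once. Intervals and the limit for 0 counts (3 counts) cover counting error only. Positions are from GENCODE vM21 and promoters from RefSeq. Symbols that occur more than once (35) were followed by their first identifier. The members, gates and gene lists were chosen with earlier results of these data known. Listed genes were named where called against the somatic mean or where a role is described. Not all calls against single types are named.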

Additional observations from a re-analysis of the deposited data

Results flagged for a closer look

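Cells that passed no gate, 268 in replicate 1 and 407 in replicate 2, were in no comparison, and the 10 genes summed to 1809 and 1866 CPM (UMIs per 1000000) in them, above the limits of 1.45 and 1.31 that a count of 0 allows. Ldha stood at 337 and 315 CPM there and Ldhb at 351 and 414, within the range of the somatic gates. The 6 immune markers summed to 1400.5 and 1808 CPM in these cells and the erythroid markers to 80.8 and 2006.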

How the results depend on the processing

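The higher Ldhb and lower Ldha of germ cells kept their direction against the somatic mean and each somatic type under every setting tried, and their call where a test was possible, at log2 values of 2.44 to 3.29 and -5.43 to -4.26 against the mean. Of 765 other fits of 63 single differences, 726 were on the same side of the call, 19 lost it, 11 gained it and 9 turned direction, none of the last called in the fit as reported. A gene absent from the fit of a setting is not counted for that setting. With cells thinned to 2000 UMIs the calls of the 10 genes lower in germ cells fell to 3 and those against granulosa cells to 3. Slc2a3 and Hk2, called in both comparisons before thinning, were then not tested, having too few UMIs. Calls against mesothelial cells fell to 5, those between somatic types to 14 and those of other pathway genes higher in germ cells to 4, with fewer UMIs and genes tested. Thinning also took the Slc2a3 to Slc2a1 difference to -1.22 and turned Slc2a1 (-0.10) and Hk1 (-0.066) against the mean, Hk1 against interstitial (-0.14) and Pkm against mesothelial cells (-0.22). With all somatic cells summed per library, 1 of the 10 genes (Ldhb) was called higher, as Pfkp was not (log2 1.29, adjusted p = 0.130), and 11 other pathway genes were called lower; DESeq2 also gave 11, and the cause was not tested. With gate thresholds doubled, Slc16a1 against endothelial cells turned to 0.93 and its call against the mean was lost. Each library alone gave values with no test, counted by fold: 1 to 2 of the 10 genes higher than the mean, 5 to 7 different from endothelial cells, and 9 to 12 other genes lower. Values alone ranged from -2.25 to 1.68 for Hk2, -1.76 to 0.31 for Pfkp and -0.48 to 0.12 for Slc16a1 against endothelial cells, and from -0.53 to 1.63 for Pfkp against granulosa cells. The replicate block, which pairs types of the same library, gave 2 genes higher and 5 lower than the mean and 27 calls between somatic types, and lost or gained no call of germ cells. The median log2 difference over all genes tested was 0.23 with TMM, 0.14 with library sizes alone, 0.05 with DESeq2, 0.40 with no filter on low counts, 0.02 with thinned cells and -0.03 with all somatic cells summed, where 4595 genes were called higher and 5000 lower against 4720 and 3291 in the fit as reported. Values from about 10 UMIs or fewer in a gate have a wide counting error. For Slc2a3 and Hk2 in germ cells such counts came from sums of 16366515 and 27179308 UMIs, at 0.294 to 0.428 CPM. Most genes in the 28 endothelial cells of replicate 2, with 361803 UMIs in all, are limited by depth.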
